A study of Mus musculus with 5 samples.

Results

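The genes described here are 36 components of transforming growth factor beta (TGF-beta) and bone morphogenetic protein (BMP) signalling, picked by name from a table of 38463 gene symbols. They are 5 ligands, 4 latency proteins, 5 type I and 4 type II receptors, 2 co-receptors, 7 Smad proteins, 2 ubiquitin ligases, 3 corepressors and 4 target genes. All 36 had a row. RNA came from cultured peritoneal macrophages of mice, the resident phagocytes of the abdominal cavity. The 3 wild-type libraries carry the strain label C7/BL6, and the 2 knockout libraries the strain label LysMCre-Nrp1fl/fl and the genotype Nrp1-/-. In the latter mice Cre recombinase under the lysozyme M promoter deletes floxed Nrp1 in myeloid cells. Its product, neuropilin 1, binds semaphorins, VEGF and also TGF-beta. The labels name no Cre-carrying or floxed control, no age and no sex, and leave unsaid whether each library is a separate animal. The spread between libraries, on which every p-value rests, may therefore be technical.

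In this pathway a ligand dimer joins type II and type I receptor kinases, and the type I receptor phosphorylates receptor Smads, which enter the nucleus with Smad4. TGF-beta and activin ligands act mainly through Smad2 and Smad3, and BMP ligands through Smad1 and Smad5. TGF-beta is secreted in a latent form, bound by latency proteins in the matrix or on the cell surface, and must be activated before it can bind its receptors. In macrophages TGF-beta is known for restraining inflammatory activation and for shaping tissue-resident identity.

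The promoters of Tgfb1, Tgfb2 and Ltbp1 are shown because Tgfb1 was the ligand of highest level, and because Tgfb2 and Ltbp1 were among the members with the largest positive differences between the genotypes. RefSeq (build GRCm38.p6, the build the authors name as mm10) lists 2 starts for Ltbp1. Each sequence is the 250 bases before the start, 5′ to 3′ on the gene's strand. Capitals mark CAGAC, a Smad-binding motif, on either strand (GTCTG is its complement). The regions are chr7:25686752-25687001 (plus strand) for Tgfb1, chr1:186705990-186706239 (minus strand) for Tgfb2, and chr17:75005279-75005528 and chr17:75178531-75178780 (plus strand) for the upstream and the downstream start of Ltbp1.
Tgfb1: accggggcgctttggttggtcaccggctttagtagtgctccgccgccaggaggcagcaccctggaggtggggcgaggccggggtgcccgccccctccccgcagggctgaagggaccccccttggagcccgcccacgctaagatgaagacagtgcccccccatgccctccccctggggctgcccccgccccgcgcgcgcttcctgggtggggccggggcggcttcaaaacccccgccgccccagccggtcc
Tgfb2: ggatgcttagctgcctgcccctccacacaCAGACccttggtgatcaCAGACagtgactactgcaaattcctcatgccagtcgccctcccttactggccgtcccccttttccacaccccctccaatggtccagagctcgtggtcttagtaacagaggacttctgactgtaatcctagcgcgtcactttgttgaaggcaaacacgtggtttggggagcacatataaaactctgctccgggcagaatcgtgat
Ltbp1, upstream start: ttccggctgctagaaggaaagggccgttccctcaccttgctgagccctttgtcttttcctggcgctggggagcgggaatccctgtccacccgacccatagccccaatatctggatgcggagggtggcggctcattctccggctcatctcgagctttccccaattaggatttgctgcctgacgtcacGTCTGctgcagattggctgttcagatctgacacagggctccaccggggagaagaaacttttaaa
Ltbp1, downstream start: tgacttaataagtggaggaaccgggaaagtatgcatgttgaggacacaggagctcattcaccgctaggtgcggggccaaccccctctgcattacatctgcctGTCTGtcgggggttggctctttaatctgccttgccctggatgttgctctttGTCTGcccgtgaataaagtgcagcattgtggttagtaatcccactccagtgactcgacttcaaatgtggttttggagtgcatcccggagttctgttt
The Tgfb1 window held 0 copies of CAGAC, the Tgfb2 window 2, and the Ltbp1 windows 1 and 2. Promoter sequences matched 25 of the 36 genes, with 33 starts, of which 17 (51.5%) held CAGAC, against 42.2% of all 32851 promoter windows. The motif GGCGCC, of the kind found in BMP-responsive elements, stood in 7 of the 33 (21.2%) and in 9.59% of all windows, and in none of the 4 shown. A match of letters is a description of the window and not a binding site.

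The values are FPKM, fragments scaled to transcript length and to the mapped fragments of the library. Levels of different genes are thus on one scale. In wild-type replicate 3, against the other wild-type libraries, they also shifted with transcript length and base composition, as described below. Among the 12214 genes tested, Pearson's r between libraries was 0.966 to 0.972 for the pairs without wild-type replicate 3 and 0.929 to 0.938 for the pairs with it. That library was also low for most genes tested, by a median of 0.29 on the log2(FPKM + 1) scale against the mean of wild-type replicates 1 and 2. Its summed FPKM over 6 mast cell markers was 176, against 16.3 to 34.0 in the other 4 libraries. All 7 macrophage markers were above 1 FPKM in every library, from Fcgr1 at 8.34 to 12.3 FPKM to Csf1r at 765 to 1109 FPKM and Cd68 at 1141 to 1964 FPKM. Nrp1, the targeted gene, had 24.3, 19.0 and 11.5 FPKM in wild-type replicates 1, 2 and 3 and 7.63 and 7.70 in the knockout replicates. The groups did not overlap, and the log2 difference was -1.09 ± 0.32 (SE; limma adjusted p = 0.93; two-sided exact permutation p = 0.2, the smallest that 3 against 2 libraries allow).

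No member of the pathway passed the test between knockout and wild-type macrophages. On the log2(FPKM + 1) scale with all 5 libraries, the differences ran from -0.82 for Acvrl1 to 0.85 for Skil. Of the 36 genes, 34 reached 1 FPKM in at least 2 libraries and were tested, and 0 had a limma adjusted p under 0.05, against 0.0573% of all genes tested (0.0409% higher and 0.0164% lower in the knockout). At an unadjusted p under 0.05 the count was also 0, against 1.82% of all genes. The smallest unadjusted p was 0.051, for Acvrl1, and the adjusted p of the 34 genes lay between 0.93 and 1.00. The difference was positive for 22 members and negative for 12 (64.7% positive, against 63.9% of all genes tested), and after quantile normalization for 18 and 16 (52.9%, against 49.3%). The median difference over the members was 0.17 and that over all genes 0.11, on the log2(FPKM + 1) scale, which understates changes of low genes. Knockout values lay above all wild-type values for 7 members (13.9% of all genes) and below all of them for 4 (6.95% of all genes), 11 of 34 together or 32.4%, against 20.8% of all genes. The 7 were Tgfb2, Bmp2, Ltbp1, Tgfbr2, Bmpr2, Smurf1 and Skil. The 4 were Lrrc32, Acvrl1, Id3 and Ctgf. Ctgf, and Id1 below, passed the filter through wild-type libraries alone, so their lower direction was fixed and gives no support to a change. Median-of-ratios and quantile scaling, which centre all genes near 0, gave 6 and 5, with Bmpr2 leaving the first group and Id1 joining the second, against 11.4% and 10.1% of all genes under median-of-ratios and 10.8% and 11.0% under quantile scaling. Rescaling to equal sums gave 8 and 3, with Smurf2 joining the first group and Id3 leaving the second, against 16.8% and 4.45% of all genes.

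**Figure D1:**
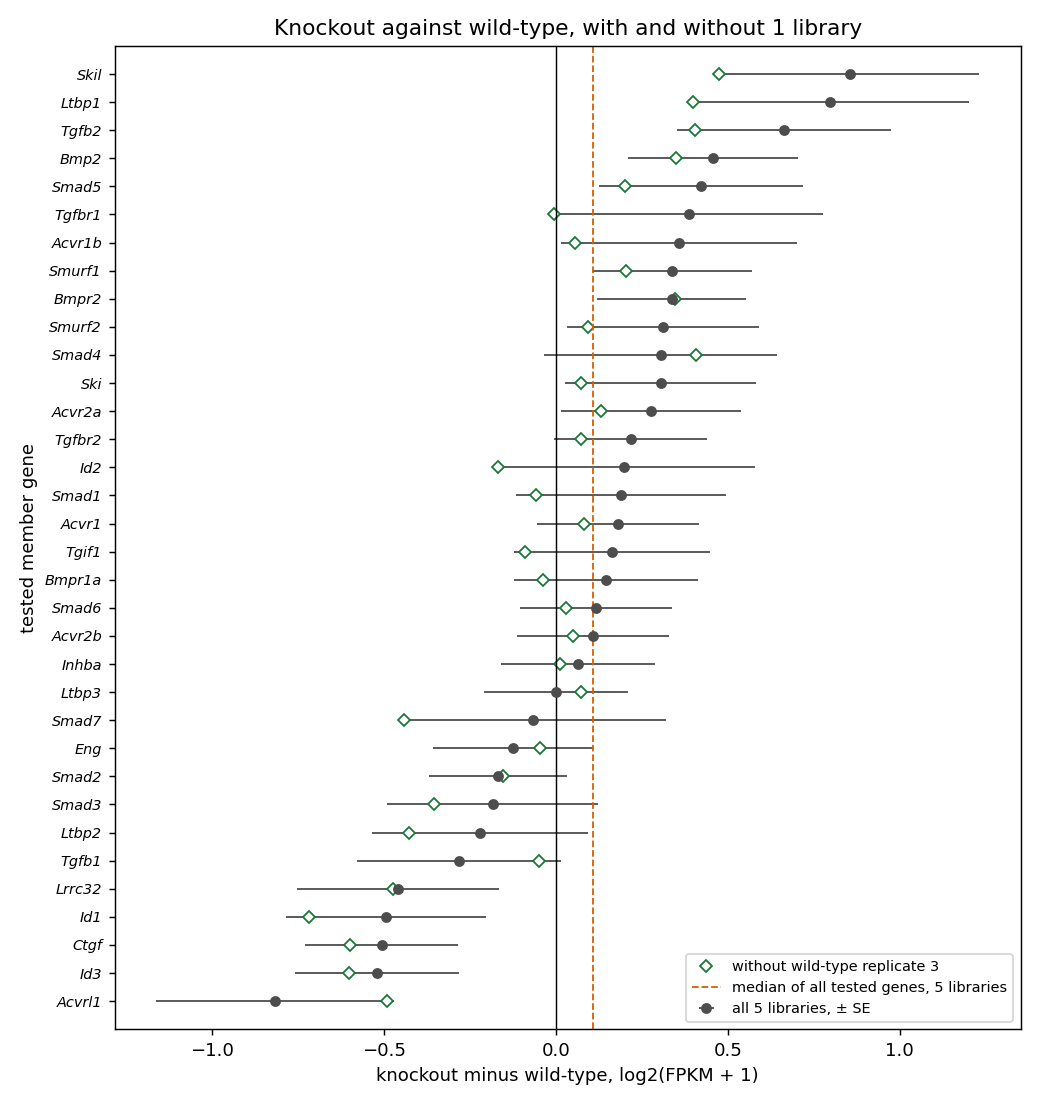
Knockout minus wild-type difference of the 34 tested members on the log2(FPKM + 1) scale, for all 5 libraries (filled points, bars are ± SE) and without wild-type replicate 3 (open diamonds); the dashed line is the median of all tested genes, 0.11. Skil, at 0.85, and Acvrl1, at -0.82, stand at the ends, and the positive differences of Skil, Ltbp1 and Tgfb2 shrink when that library is left out.

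Wild-type replicate 3 touches most of these values. It was the lowest of the 5 libraries for 22 of the 34 members, against 54.4% of all genes tested. Without it the same 7 genes stood above wild-type, 8 stood below (Lrrc32, Acvrl1, Id3 and Ctgf again, with Id1, Ltbp2, Smad7 and Tgif1), and the share of members without overlap was 44.1%, against 32.4% of all genes. The median difference over the members became 0.02, as did that over all genes. Then 6 members had an unadjusted p under 0.05, namely Acvrl1, Ctgf, Id1, Id3, Skil and Smad7, against 4.27% of all genes, and 0 passed after adjustment (smallest limma adjusted p = 0.997), against 0.0742% of all genes (0.0495% higher and 0.0247% lower). Both counts, of genes below wild-type and of small p, hold Id1 and Ctgf, whose direction the filter fixed.

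Tgfb1 carried the ligand message of these macrophages. It had 244, 299 and 439 FPKM in wild-type replicates 1, 2 and 3 and 277 and 246 in the knockout replicates, so that the groups overlapped and the highest value was in wild-type replicate 3. Its wild-type mean of 327 FPKM was at or above that of 98.1% of the genes tested. Tgfb2, the second TGF-beta isoform, had wild-type values of 11.3, 15.3 and 7.27 FPKM and knockout values of 18.1 and 17.4. Both knockout values lay above every wild-type value, with a log2 difference of 0.66 ± 0.31 (SE, 95% interval -0.08 to 1.40), or 0.40 without wild-type replicate 3. The FPKM ratio of Tgfb1 to Tgfb2 within a library was 21.5, 19.6 and 60.4 in wild-type and 15.3 and 14.2 in knockout. The longest coding transcripts of Tgfb1 and Tgfb2 differ in length (2175 and 5116 bases) and in GC content (62.5% and 46.9%). The part of length and GC in this ratio was not tested. Tgfb3, the third isoform, stayed between 0.119 and 0.413 FPKM in all 5 libraries and was not tested.

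Bmp2, a BMP ligand, was low, with wild-type values of 1.35, 2.08 and 1.15 FPKM and knockout values of 2.39 and 2.46. The groups did not overlap, and the log2 difference was 0.46 ± 0.25 (SE), or 0.35 without wild-type replicate 3. Inhba, which encodes the subunit of activin A, lay between 2.09 and 2.77 FPKM and overlapped, with a log2 difference of 0.06 (95% interval -0.47 to 0.60).

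Ltbp3 and Ltbp1, the latency members of highest level, tether latent TGF-beta to the matrix. Nrros, a latency gene among the further pathway genes described below, stood higher, at 121 to 151 FPKM, with overlapping groups. Ltbp3 had wild-type values of 31.2, 27.2 and 34.1 FPKM and knockout values of 33.2 and 28.4, a difference of 0.00 on the log2 scale (95% interval -0.49 to 0.49). Ltbp1, which lies on chromosome 17 at 75005568 to 75392512, had wild-type values of 24.8, 32.0 and 11.7 FPKM and knockout values of 41.8 and 33.5. Its knockout values lay above wild-type, by 0.80 ± 0.40 (SE, log2) with all libraries and by 0.40 without wild-type replicate 3. The table gives 1 value per gene, so the transcripts from the pair of starts shown above were not separated. The other 7 markers of large peritoneal macrophages on the list that holds Ltbp1 summed to 132 to 151 FPKM in wild-type and 168 to 205 in knockout. They did not move as one, in 2 of them picked after their values were seen: Prg4 had a wild-type mean of 68.7 FPKM and a knockout mean of 133, and Alox15 had means of 44.3 and 22.1. Groups did not overlap for Prg4, which alone held 53.9 to 81.8 FPKM of the wild-type sums and 119 to 147 of the knockout sums. Groups overlapped for Alox15 and for the other markers, Gata6, Timd4, Icam2, Selp and Garnl3. The part of these markers in the Ltbp1 values was not tested.

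Lrrc32 encodes GARP, which holds latent TGF-beta on the cell surface and is known from regulatory T cells and platelets. It had wild-type values of 8.02, 15.4 and 10.8 FPKM and knockout values of 7.59 and 7.90. The gap between the groups was small, since wild-type replicate 1 stood just above knockout replicate 2 (log2 difference -0.46 ± 0.29, SE, or -0.26 with library weights). Summed over 5 T cell markers the libraries had 0.276 to 0.505 FPKM, and over 6 platelet markers 0.860 to 3.17 FPKM. The part of these cells in the Lrrc32 values was not tested. Ltbp2, which does not bind latent TGF-beta, ranged from 0.842 to 2.26 FPKM and overlapped.

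**Figure D2:**
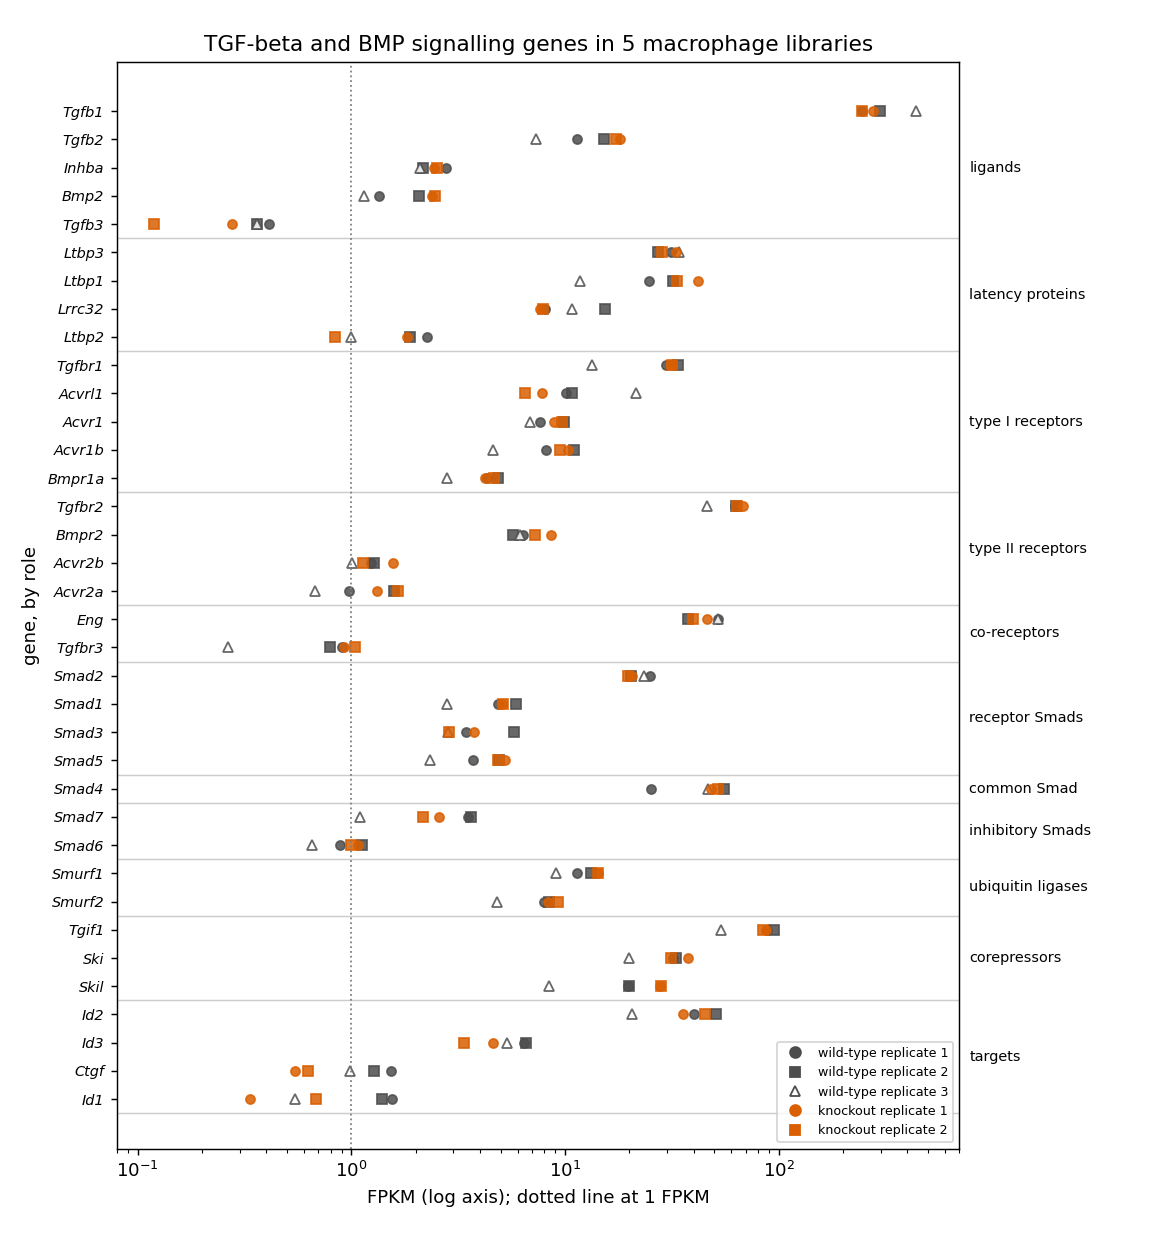
FPKM (log axis) of the 36 genes by role in the 5 libraries; grey symbols are wild-type replicates, with replicate 3 as an open triangle, and orange symbols are knockout replicates. Tgfb1 stands highest with 244 to 439 FPKM, Tgfb3 lowest with 0.119 to 0.413, and the open triangle is the leftmost symbol for most genes.

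The TGF-beta receptors Tgfbr2 and Tgfbr1 stood above the BMP and activin receptors in every library, except that Acvrl1 exceeded Tgfbr1 in wild-type replicate 3. Tgfbr2, the type II receptor that binds TGF-beta, had wild-type values of 62.2, 63.1 and 46.2 FPKM and knockout values of 68.0 and 64.0. The knockout values lay above wild-type by a narrow margin, with a log2 difference of 0.22 ± 0.22 (SE), or 0.07 without wild-type replicate 3. Tgfbr1, its type I partner, had wild-type values of 29.5, 33.9 and 13.4 FPKM and knockout values of 31.3 and 31.7. The knockout values lay within the wild-type range, and the difference of 0.39 became -0.01 without wild-type replicate 3. Per library the FPKM ratio of Tgfbr2 to Tgfbr1 was 2.11, 1.86 and 3.45 in wild-type and 2.17 and 2.02 in knockout.

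Acvrl1 (ALK1), a type I receptor for BMP9 and BMP10 best known from endothelium, gave the lowest p of all members. It had wild-type values of 10.1, 10.8 and 21.4 FPKM and knockout values of 7.83 and 6.49. Both knockout values lay below every wild-type value, and wild-type replicate 3 stood apart above the rest. The log2 difference was -0.82 ± 0.35 (SE, 95% interval -1.64 to 0.01; limma unadjusted p = 0.051, adjusted p = 0.93), or -0.92 relative to the median of all genes. Without wild-type replicate 3, whose mast cell marker sum was also high, it was -0.49, and the part of those markers was not tested. The 7 endothelial markers summed to 2.13 to 3.53 FPKM in wild-type and 3.05 to 4.03 in knockout. Of these Vwf lay at 2.07 to 3.94 FPKM in the 5 libraries, Cdh5 reached 0.129 FPKM, and Emcn and Cldn5 were listed at 0 in all 5. Their part in the Acvrl1 values was not tested.

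Acvr1b, the activin type I receptor, lies 28.7 kb from Acvrl1 on chromosome 15 (Acvrl1 at 101128522 to 101145336 and Acvr1b at 101174067 to 101213684, both on the plus strand). It had wild-type values of 8.10, 11.0 and 4.59 FPKM and knockout values of 10.3 and 9.42, so that these neighbours had differences of opposite sign (-0.82 and 0.36, or -0.49 and 0.06 without wild-type replicate 3). Within a library the FPKM ratio of Acvrl1 to Tgfbr1 was 0.341, 0.320 and 1.60 in wild-type and 0.250 and 0.205 in knockout.

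Among the other type I receptors the BMP receptor Acvr1 ranged from 6.87 to 9.88 FPKM and Bmpr1a from 2.81 to 4.85, both with overlapping groups. Bmpr2, the type II receptor for BMPs, had wild-type values of 6.38, 5.68 and 6.15 FPKM and knockout values of 8.62 and 7.25. Its 3 wild-type values were close together and the knockout values lay above them, with a log2 difference of 0.34 ± 0.22 (SE) that was the same size without wild-type replicate 3 (0.35). Relative to the median of all genes it was 0.23, and the groups overlapped under median-of-ratios and quantile scaling. The activin type II receptors Acvr2a (0.672 to 1.64 FPKM) and Acvr2b (1.01 to 1.56 FPKM) were near the limit of 1 FPKM and overlapped.

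Eng and Tgfbr3 encode co-receptors that present ligand to the signalling receptors. Eng (endoglin) had wild-type values of 51.8, 37.4 and 52.1 FPKM and knockout values of 45.9 and 39.5, with overlapping groups and a log2 difference of -0.13 (95% interval -0.68 to 0.43). Tgfbr3 (betaglycan) had wild-type values of 0.908, 0.790 and 0.264 FPKM and knockout values of 0.922 and 1.04 and did not pass the filter on low values. Exons of Eng overlap those of Fpgs on the other strand (3.15 to 4.89 FPKM), and exons of Acvr2a those of Orc4 (2.55 to 6.78 FPKM, above Acvr2a itself). The labels do not say whether strand was used in counting, so reads of such overlapping genes may be mixed.

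Groups overlapped for all 7 Smad transcripts. Smad4, the common partner, had wild-type values of 25.3, 55.2 and 46.7 FPKM and knockout values of 48.3 and 51.8. Wild-type replicate 1 was low and the other 4 libraries were close. The log2 difference was 0.30. Leaving out wild-type replicate 1 gave -0.02, and library weights gave 0.67. Smad2 was the most abundant receptor Smad, with wild-type values of 24.9, 20.4 and 23.4 FPKM and knockout values of 20.6 and 19.8 (log2 difference -0.17, 95% interval -0.65 to 0.31). Its partner Smad3 ranged from 2.84 to 5.77 FPKM, and the ratio of Smad2 to Smad3 from 3.54 to 8.24. The BMP-side Smad1 (2.79 to 5.88 FPKM) and Smad5 (2.33 to 5.25 FPKM) were lowest in wild-type replicate 3, and their groups overlapped.

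The inhibitory Smads are themselves induced by the pathway and block it. Smad7 had wild-type values of 3.50, 3.65 and 1.10 FPKM and knockout values of 2.57 and 2.17. The knockout values lay between wild-type replicate 3 and the other wild-type libraries, and the log2 difference was -0.07 with that library and -0.44 without it. Its sign turned when another library was left out, at 0.11 without wild-type replicate 1, 0.13 without wild-type replicate 2 and 0.02 without knockout replicate 2. Smad6, which acts mainly on BMP signalling and lies 195 kb from Smad3 on chromosome 9, stayed between 0.657 and 1.12 FPKM.

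The 3 corepressors and 2 ubiquitin ligases, negative regulators downstream of the receptors, had positive differences that did not pass, with Tgif1 at -0.09 without wild-type replicate 3. Skil (SnoN) is a corepressor that binds Smads, and it is degraded upon TGF-beta signalling and then re-expressed as a target. It had wild-type values of 19.8, 19.8 and 8.41 FPKM and knockout values of 27.7 and 28.1. Knockout values lay above every wild-type value and close to each other, and wild-type replicate 3 was far below the rest. The log2 difference was 0.85 ± 0.38 (SE, 95% interval -0.04 to 1.75; limma unadjusted p = 0.058, adjusted p = 0.93), or 0.75 relative to the median of all genes, and 0.47 without wild-type replicate 3. Its relative Ski had wild-type values of 32.0, 33.1 and 19.8 FPKM and knockout values of 37.6 and 31.4, with overlap. The ratio of Ski to Skil was 1.62, 1.67 and 2.36 in wild-type and 1.36 and 1.12 in knockout. Tgif1, a homeodomain corepressor, was the most abundant of the 3 and had wild-type values of 88.2, 94.6 and 53.6 FPKM and knockout values of 86.9 and 84.7, with overlap.

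Smurf1 and Smurf2 are ubiquitin ligases that target Smads and receptors for degradation. Smurf1 had wild-type values of 11.3, 13.3 and 9.03 FPKM and knockout values of 14.3 and 14.2. The knockout values lay above wild-type, by 0.34 ± 0.23 (SE, log2), or by 0.20 without wild-type replicate 3. Smurf2 ranged from 4.82 to 9.29 FPKM and overlapped.

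Of the 4 target genes, Id1, Id3 and Ctgf had lower means in the knockout, and Id2 did not. The Id genes encode inhibitors of basic helix-loop-helix factors and are classical BMP targets, and Ctgf (now Ccn2) encodes a secreted matricellular protein induced by TGF-beta. Id3 had wild-type values of 6.41, 6.57 and 5.32 FPKM and knockout values of 4.57 and 3.37. All 3 wild-type values lay above both knockout values, with a log2 difference of -0.52 ± 0.24 (SE, 95% interval -1.08 to 0.04; limma unadjusted p = 0.066, adjusted p = 0.93), and -0.60 without wild-type replicate 3. Id1 had wild-type values of 1.55, 1.38 and 0.545 FPKM and knockout values of 0.336 and 0.679. Wild-type replicate 3 lay between the knockout values, and the difference was -0.49 ± 0.29 (SE), or -0.72 without that library.

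Ctgf, on chromosome 10 at 24595442 to 24598683, had wild-type values of 1.54, 1.27 and 0.980 FPKM and knockout values of 0.542 and 0.628. The groups did not overlap, with a log2 difference of -0.51 ± 0.22 (SE; limma unadjusted p = 0.057, adjusted p = 0.93). Id1 and Ctgf passed the filter through wild-type libraries alone, so both had to be lower in the knockout, and their direction gives no support to a change of the targets. With a pseudocount of 0.1 their differences were -0.998 and -0.975. Id2, the Id gene of highest level, had wild-type values of 40.0, 50.9 and 20.5 FPKM and knockout values of 35.4 and 45.1, within the wild-type range (log2 difference 0.20, and -0.17 without wild-type replicate 3).

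**Figure D3:**
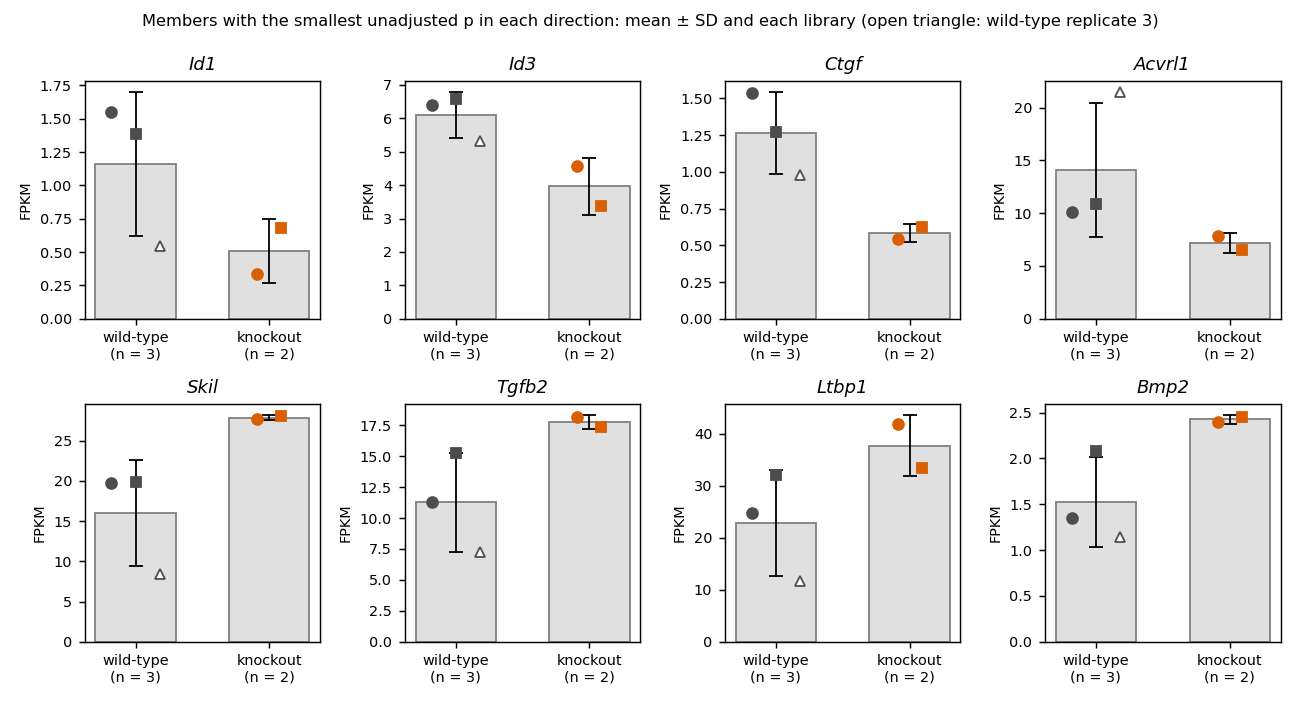
FPKM of the 8 members with the smallest unadjusted p, 4 lower (Id1, Id3, Ctgf, Acvrl1) and 4 higher (Skil, Tgfb2, Ltbp1, Bmp2) in the knockout; bars are means, error bars SD (n = 3 wild-type, n = 2 knockout) and symbols are libraries. Id3 lies at 5.32 to 6.57 in wild-type and 3.37 to 4.57 in knockout. The open triangle of wild-type replicate 3 is the highest wild-type value for Acvrl1 and the lowest in the other panels.

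Fibroblast and mesothelial transcripts moved with part of this pattern. The 16 markers of these cells gave summed wild-type values of 62.5, 59.3 and 28.3 FPKM and knockout values of 32.8 and 25.2; 8 of them reached 1 FPKM in some library, led by Sparc and Col1a1, and none was listed at 0 in all 5. In wild-type replicate 3 the sum lay within the knockout range, while Id3 and Ctgf there stood above both knockout libraries and Id1 between them. The mesothelial markers, at most 1.11 FPKM, add little to the sum. Of these, Msln, Upk3b, Krt8, Krt18 and Krt19 were highest in wild-type replicate 3, and Wt1 and Lrrn4 were not. Knockout values lay below all wild-type values for Msln, Wt1, Krt8 and Krt18 and overlapped for Upk3b, Krt19 and Lrrn4. The part of fibroblasts and mesothelial cells in the values of Id1, Id3, Ctgf and Nrp1 was not tested. In bulk RNA, fewer cells of a type and less RNA per cell cannot be told apart.

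Transcript length and base composition also ran along the differences. Over the 34 tested members the log2 difference had a Pearson's r of 0.46 with the log2 length of the longest coding transcript and -0.47 with its GC content. Over the 10044 tested genes with such a transcript (82.2%) the values were 0.43 and -0.34. Leaving out wild-type replicate 3, r over the members was 0.51 with length and -0.38 with GC, and over 10001 genes 0.23 and -0.12. Wild-type replicate 3 minus the mean of wild-type replicates 1 and 2 had an r of -0.40 with length and 0.38 with GC over the 10044 genes. Over the members these were -0.095 and 0.36. The genes share libraries and all these r are descriptions. The members were longer than most genes, with a median of 4833 against 3050 bases. Id1 and Id3, at 1160 and 1278 bases, were the shortest of the tested members, and Skil and Ltbp1, at 6717 and 6671 bases, were among the long ones. The next shortest, Tgif1 and Id2 (1714 and 1969 bases), had positive differences with all 5 libraries, of 0.16 and 0.20. Of the members longer than Skil, Bmpr2 and Tgfbr2 had positive differences and Ltbp2 and Smad2 negative ones, of -0.22 and -0.17. Id1 and Ctgf, whose direction the filter fixed, are among the 34 members behind r. The part of length and GC in these differences, and in levels and ratios set between genes, was not tested.

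**Figure D4:**
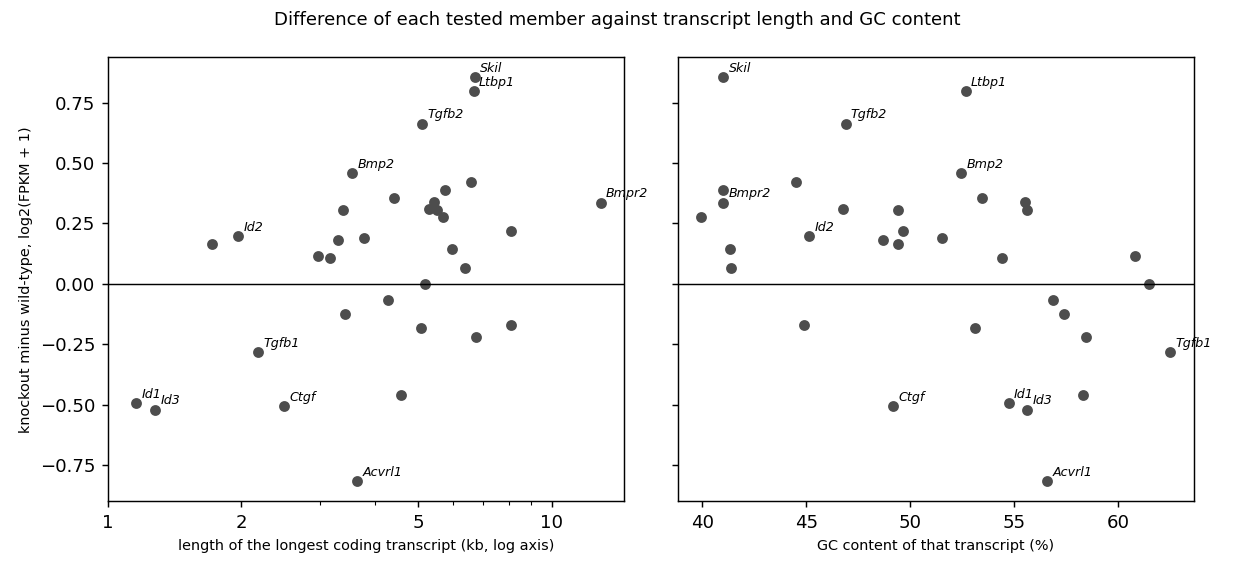
Knockout minus wild-type difference on the log2(FPKM + 1) scale of the 34 tested members against the length (kb, log axis) and the GC content (%) of the longest coding transcript. Short Id3 lies below 0 and long Skil and Ltbp1 above it, while short Tgif1 and Id2 lie above 0 and long Ltbp2 and Smad2 below it. Over the 34 members r is 0.46 for length and -0.47 for GC. These include Id1 and Ctgf, whose direction below 0 the filter fixed.

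The rest of the pathway was read from a list of 122 further genes, of which 74 were tested. By limma 0 passed after adjustment, against 0.0573% of all genes, and 4 had an unadjusted p under 0.05, against 1.82% of all genes. The difference was positive for 46 and negative for 28, with a median of 0.07, against 0.11 over all genes. Groups did not overlap for 16 genes on the higher side (13.9% of all genes) and for 4 on the lower side (6.95% of all genes).

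On the higher side the smallest p belonged to Thbs1 and Itgav, both of which act in releasing active TGF-beta from its latent form. Of the 10 tested latency and activation genes on this list, 6 had positive and 4 negative differences. Groups did not overlap on the higher side for 2 of the 10 (20%), against 13.9% of all genes. Of the integrin beta chains listed, Itgb6 was at 0, Itgb3 and Itgb8 stayed under 1 FPKM, and Itgb1 and Itgb5 overlapped. Thbs1 (thrombospondin 1) had wild-type values of 184, 313 and 117 FPKM and knockout values of 385 and 453, without overlap (log2 difference 1.14 ± 0.41, SE, and 0.80 without wild-type replicate 3; limma unadjusted p = 0.027, adjusted p = 0.93). Itgav, the integrin chain alpha V, had wild-type values of 45.0, 51.1 and 19.3 FPKM and knockout values of 67.2 and 66.2. Its difference of 0.89 became 0.47 without wild-type replicate 3. The stress-induced ligand Gdf15 had wild-type values of 4.08, 5.64 and 5.19 FPKM and knockout values of 5.89 and 9.39, and Twsg1, a modulator of BMP ligands, had 5.73, 6.01 and 2.55 against 6.99 and 8.14. The groups of these 4 genes did not overlap.

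Cx3cr1, the receptor for fractalkine, had the smallest p on the lower side. It had wild-type values of 10.8, 18.5 and 19.0 FPKM and knockout values of 7.72 and 4.90 (log2 difference -1.21 ± 0.32, SE; limma unadjusted p = 0.0073, adjusted p = 0.93). Cdkn2b, a cell cycle inhibitor induced by TGF-beta, had wild-type values of 15.3, 19.7 and 24.3 FPKM and knockout values of 10.8 and 11.4, a difference of -0.76 ± 0.25 (SE), and -0.60 without wild-type replicate 3. Col1a2, a collagen chain and one of the fibroblast markers above, had 9.07, 9.37 and 5.60 against 5.29 and 3.59. Runx3, a transcription factor that partners Smads, had 6.75, 5.33 and 5.48 against 4.86 and 3.55. Again the groups of each gene did not overlap, and none passed (limma adjusted p = 0.93 for each).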

How the data were processed

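Poly(A) RNA was sequenced on an Ion Torrent instrument. Per the labels' protocols, the authors used Torrent Suite 4.4 with the Whole Transcriptome Analysis Plugin 4.2-r7, aligned with TopHat2 and Bowtie2 to mm10, and deposited FPKM computed with Cufflinks. Versions of those 3 tools are not given in the sources used here. FPKM keep no read counts, so depth is unknown. A further 17 deposited columns were not used.

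Values of wild-type replicate 3 followed a name sort that counts hyphens, in 2144 of 38757 rows, and were put back (r with the other libraries in 722 expressed displaced rows 0.171 before and 0.916 after). None of the 36 members stood in such a row. Rows named by a number (27) or differing only in case (50) were dropped, and rows of one symbol summed.

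Genes with at least 1 FPKM in at least 2 libraries were tested with limma 3.58.1 (R 4.3.3) on log2(FPKM + 1), genotype as single term, mean-variance trend, Benjamini-Hochberg adjustment over all 12214 genes, threshold 0.05. The fit was also run on simulated data, with planted changes far larger than the differences reported here and with no outlying library. That run does not show how well differences of the size reported here would be found. Intervals are 95% limma intervals. Levels per library are given for the highest member of each role, members whose groups do not overlap, and the 4 of smallest p in each direction, and further members by range or in full where a comparison uses them. Members and lists were chosen with earlier results of these data known. Gene positions and transcripts are from GENCODE M21, of the same build.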

Additional observations from a re-analysis of the deposited data

How the results depend on the processing

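Under the 15 alternatives (order as deposited, 3 scalings, pseudocount 0.1, no filter, a filter at 5 FPKM, library weights, no trend, replicate block, each library left out) 0 members and 0 further pathway genes were called by limma. Depth is unknown and the design is small, so these counts do not show that the pathway is unchanged. Members with an unadjusted p under 0.05 numbered 0 to 9, with 9 of 34 under library weights, where 8.97% of all genes had such a p (1.82% without weights) and 21 genes in all were called, against 7. Id1 and Ctgf, whose direction the filter fixed, were among these 9. With a pseudocount of 0.1, Id1 was -0.998 and Ctgf -0.975, larger than Acvrl1 and Skil there. The median difference over the members lay between 0.02 and 0.31, within the spread between libraries of 0.24 around 0.17. Median-of-ratios scaling moved the median of all genes from 0.11 to 0.0027. Nrp1 passed with library weights (-1.43, limma adjusted p = 0.023) and lay between -1.37 and -0.87 with a library left out. The weights were 2.56, 0.825 and 0.128 for wild-type replicates 1, 2 and 3 and 1.92 for each knockout library. Results under weights thus rest mostly on wild-type replicate 1 on the wild-type side, the library of highest Nrp1. Members without overlap numbered 12 to 20 with a library left out (20 without wild-type replicate 2, where 43.6% of all genes had none), and this count was added after seeing the data.

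The sign turned for 6 of the 29 named genes other than Nrp1, and the cause was not tested. Ltbp3 was 0.0807 at equal sums, 0.0182 with library weights and 0.0723 with the replicate block. Tgif1 was -0.0369 with library weights and -0.0890 with the block, Id2 -0.0456 and -0.17, and Tgfbr1 -0.00602 with the block. With a library left out, Ltbp3 ranged from -0.11 to 0.11, Tgfbr1 from -0.00602 to 0.63, Tgif1 from -0.0890 to 0.31, Id2 from -0.17 to 0.46, Smad4 from -0.0202 to 0.53 and Smad7 from -0.44 to 0.13. The replicate block called 0 members, with a median of 0.02. No knockout library shares the number of wild-type replicate 3, so the differences under the block equal those without that library. The numbers pair nothing the labels describe: deviations of same-numbered libraries correlated at -0.05 and -0.01. Id1 and Ctgf fell under the filter without wild-type replicate 1 or 2.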
